A study of Mus musculus with 16 samples.

Results

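In this comparison the genotype difference seen after stroke surgery was set against the genotype difference seen after sham surgery, gene by gene, in microglia/macrophages of Vdr-cKO and control mice. Every gene that passed the filter on low counts is a member, which gave 17335 genes of the 32166 in the count table, and all 16 libraries entered 1 fit with 4 groups. Vdr-cKO mice were Cx3cr1CreER/+; Vdrf/f, so that tamoxifen switches on a Cre recombinase in cells that use the Cx3cr1 promoter and removes the floxed part of Vdr. Control mice were Vdrf/f and carried the same floxed alleles without Cre. Mice of both genotypes were male, on a C57BL/6 background and 10 to 12 weeks old, and had transient middle cerebral artery occlusion (MCAO) or a sham operation, with cells taken on day 3. The groups held 4 MCAO Vdr-cKO, 4 MCAO control, 3 sham Vdr-cKO and 5 sham control libraries. No group carried Cre without floxed Vdr, so the loss of Vdr, the missing Cx3cr1 copy and Cre itself cannot be told apart. The Cx3cr1 promoter is also active in monocytes and in macrophages at the borders of the brain, and the cells after MCAO can hold blood-derived cells next to resident microglia. In such bulk libraries a change in the mix of cells and a change in RNA per cell cannot be told apart. Whether 1 library is 1 mouse is not stated, so the p-values measure the spread between these libraries, which may in part be technical.

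Vdr encodes the vitamin D receptor, a nuclear receptor that binds DNA together with a retinoid X receptor once vitamin D has bound it. Type I interferons bind a receptor made of IFNAR1 and IFNAR2, whose kinases JAK1 and TYK2 phosphorylate STAT proteins, and these join IRF9 and bind the interferon-stimulated response element (ISRE) of antiviral genes. Interferon-gamma acts through another receptor and factors that bind the gamma-activated site (GAS) and raise guanylate-binding proteins, immunity-related GTPases and antigen presentation. Microglia divide little in the healthy adult brain and divide after ischemia, and the genes of mitosis are switched on together in dividing cells through CCAAT boxes and the cell cycle genes homology region (CHR) of their promoters. A positive interaction means that the Vdr-cKO minus control difference was higher after MCAO than after sham surgery, and a negative interaction means that it was lower. Since a negative value can come from a difference in either surgery, the levels of all 4 groups are given for the genes described in most detail.

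The libraries held 13795946 to 17836796 counts. The first principal component, with 69% of the variance, separated MCAO from sham libraries. On the second component, with 5.71%, sham control libraries 2, 4 and 5 stood at -22.1, -50.2 and -18.9 while the other sham libraries ran from -5.03 to 26.3. The microglial genes P2ry12, Tmem119 and Sall1 were present in every library, at 800.2 CPM or more, 663 CPM or more and 399 CPM or more (counts per 1000000, scaled by TMM over all libraries). Cx3cr1 (chr9:119901616-120069879 on GRCm38) counted 822 to 1049 CPM in MCAO Vdr-cKO and 2166 to 2279.7 CPM in MCAO control libraries, and 1435 to 3109 CPM in sham Vdr-cKO and 4580.1 to 5389 CPM in sham control libraries. The genotypes did not overlap in either surgery, with Vdr-cKO lower, where the labels place Cre in 1 copy of the gene, and the interaction log2 was -0.16 (standard error 0.22, adjusted p = 0.804). Vdr (chr15:97854425-97910630) had 119, 51, 28 and 22 counts in MCAO Vdr-cKO, 51, 26, 21 and 43 in MCAO control, 6, 3 and 9 in sham Vdr-cKO and 14, 1, 6, 3 and 1 in sham control libraries, and so was not lower in Vdr-cKO, with an interaction log2 of 0.41 (standard error 1.02, adjusted p = 0.898). Counts over the whole gene need not fall when only the floxed part is removed, so they do not check the deletion. In the count table the sham control columns alone carry the ending of a read file in their names, and whether that group was handled apart from the others was not tested. MCAO Vdr-cKO libraries 1 and 2 stood above libraries 3 and 4 of their group in monocyte markers and in interferon-stimulated genes, and the calls that end without them are given with the other alternatives at the end.

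The genotype difference depended on surgery for a small share of genes. It was more positive after MCAO for 159 genes, 0.917% of those tested, and more negative for 102 genes, 0.588% (edgeR's quasi-likelihood test, adjusted p under 0.05 and a log2 difference above 1, the threshold of the study). By adjusted p alone the counts were 243 (1.40%) and 199 (1.15%). The positive and the negative genes differed in the surgery that carried the genotype difference. Of the 159 positive genes, 157 had a genotype difference after MCAO only, 1 after sham surgery only and 1 in neither. Their median genotype log2 difference was 1.60 after MCAO and 0.06 after sham surgery, against 0.02 and 0.02 over all genes tested. Of the 102 negative genes, 85 had a genotype difference after sham surgery only, 6 after MCAO only, 3 in both surgeries in opposite directions, 1 in both in the same direction and 7 in neither. Their median genotype log2 difference was -0.28 after MCAO and 1.59 after sham surgery. For comparison, 3.29% of all genes tested were higher and 1.78% lower in Vdr-cKO after MCAO by adjusted p alone, and 0.848% and 0.0750% after sham surgery. By adjusted p alone, the 199 negative genes split more evenly, with 70 after MCAO only and 95 after sham surgery only.

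**Figure D1:**
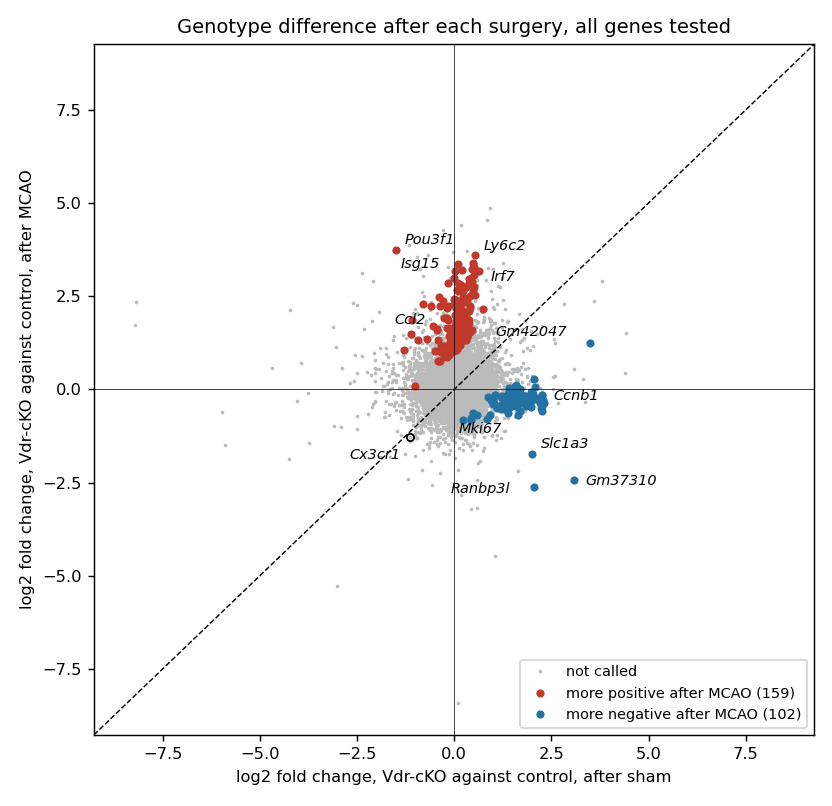
Genotype log2 difference (Vdr-cKO minus control) after sham surgery on the x axis and after MCAO on the y axis, 1 point per gene tested (17335). The 159 genes with a positive interaction (red) lie above the diagonal, near 0 on the x axis, and the 102 with a negative interaction (blue) lie mostly to the right, near 0 on the y axis.

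Seen across surgery, the 2 kinds of gene also differed. MCAO raised 111 of the 159 positive genes in control mice and 152 in Vdr-cKO mice, with median log2 changes of 0.90 and 2.55. It raised all 102 negative genes in control mice and 92 of them in Vdr-cKO mice, with medians of 3.53 and 1.67. Among all genes tested, 30.7% rose and 32.2% fell with MCAO in control mice, and 28.4% and 28.8% in Vdr-cKO mice. In the medians, the positive genes rose further with MCAO in Vdr-cKO than in control mice, while the negative genes rose less, from a sham level that was higher in Vdr-cKO mice. Of the 159 positive genes, 59 stand in lists of interferon response, antigen presentation or interferon signalling, and 86 stand in none of the 31 lists. Of the 102 negative genes, 29 stand in cell cycle lists and 68 in no list.

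Interferon-stimulated genes made up the largest group with a positive interaction. The list of these genes, like the other lists, was written with earlier results of these data known. Its counts are therefore a description and no independent support. Of 50 tested, 47 passed the interaction test by adjusted p, all positive and none negative, with a median interaction log2 of 1.63 against -0.01 over all genes. The 3 that did not pass were Trim25, Nmi and Ifi207, at 0.66, 0.72 and 0.98. All 50 were higher in Vdr-cKO after MCAO by adjusted p, and 0 of 50 differed after sham surgery by edgeR's quasi-likelihood test, where 9 were higher and 0 lower at an unadjusted p under 0.05. The share of all genes at that unadjusted p is not given here for the genotype differences, so these 9 cannot be set against it. Isg15, a ubiquitin-like protein that interferon induces, had the largest interaction of the list. After MCAO, Isg15 stood at 353, 182, 77.7 and 83.4 CPM in Vdr-cKO libraries 1 to 4 and at 21, 14.3, 18 and 14.8 CPM in control libraries 1 to 4. After sham surgery, Isg15 stood at 3.16, 3.7 and 3.22 CPM in Vdr-cKO libraries 1 to 3 and at 4.6, 3.15, 1.97, 2.94 and 2.93 CPM in control libraries 1 to 5. Every MCAO Vdr-cKO library lay above every other library, libraries 1 and 2 lay highest, and the sham groups overlapped. Its interaction log2 was 3.25 (standard error 0.62, adjusted p = 0.00546 from edgeR's quasi-likelihood test). Irf7, which encodes a regulator that amplifies the production of type I interferon, had the same order after MCAO. After MCAO, Irf7 stood at 1140.2, 801, 526 and 572 CPM in Vdr-cKO libraries 1 to 4 and at 91.1, 79, 79.1 and 61.9 CPM in control libraries 1 to 4. After sham surgery, Irf7 stood at 20.3, 16.7 and 16.1 CPM in Vdr-cKO libraries 1 to 3 and at 14, 14.3, 10.5, 11.8 and 11.2 CPM in control libraries 1 to 5. All 4 MCAO Vdr-cKO libraries again lay above the MCAO controls, and all sham libraries lay below both. Unlike in Isg15, all sham Vdr-cKO libraries lay above the sham controls, although this difference did not pass (log2 0.52, standard error 0.21, adjusted p = 0.377). Irf7 had an interaction log2 of 2.77 (standard error 0.29, adjusted p = 4.96e-05). Oas2 is an oligoadenylate synthetase that senses double-stranded RNA. Oas2 counted 581, 608, 481 and 449 CPM in the 4 Vdr-cKO libraries after MCAO, and 107, 115, 117 and 92.6 CPM in the 4 control libraries. In sham brains Oas2 counted 24.5, 24 and 18.3 CPM in the 3 Vdr-cKO libraries and 29.9, 23.9, 19.1, 23 and 16.9 CPM in the 5 control libraries. The MCAO values did not overlap between genotypes, whereas the sham values did, and the interaction log2 was 2.31 (standard error 0.22, adjusted p = 3.03e-05). Ifi44, an interferon-induced protein, had low counts after sham surgery. Ifi44 counted 40.3, 52.7, 27.1 and 25.7 CPM in the 4 Vdr-cKO libraries after MCAO, and 3.97, 2.93, 5.91 and 3.44 CPM in the 4 control libraries. Its sham libraries ran from 0.72 to 2.03 CPM in both genotypes. The MCAO Vdr-cKO libraries lay above all others, with an interaction log2 of 3.15 (standard error 0.47, adjusted p = 0.000848).

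**Figure D2:**
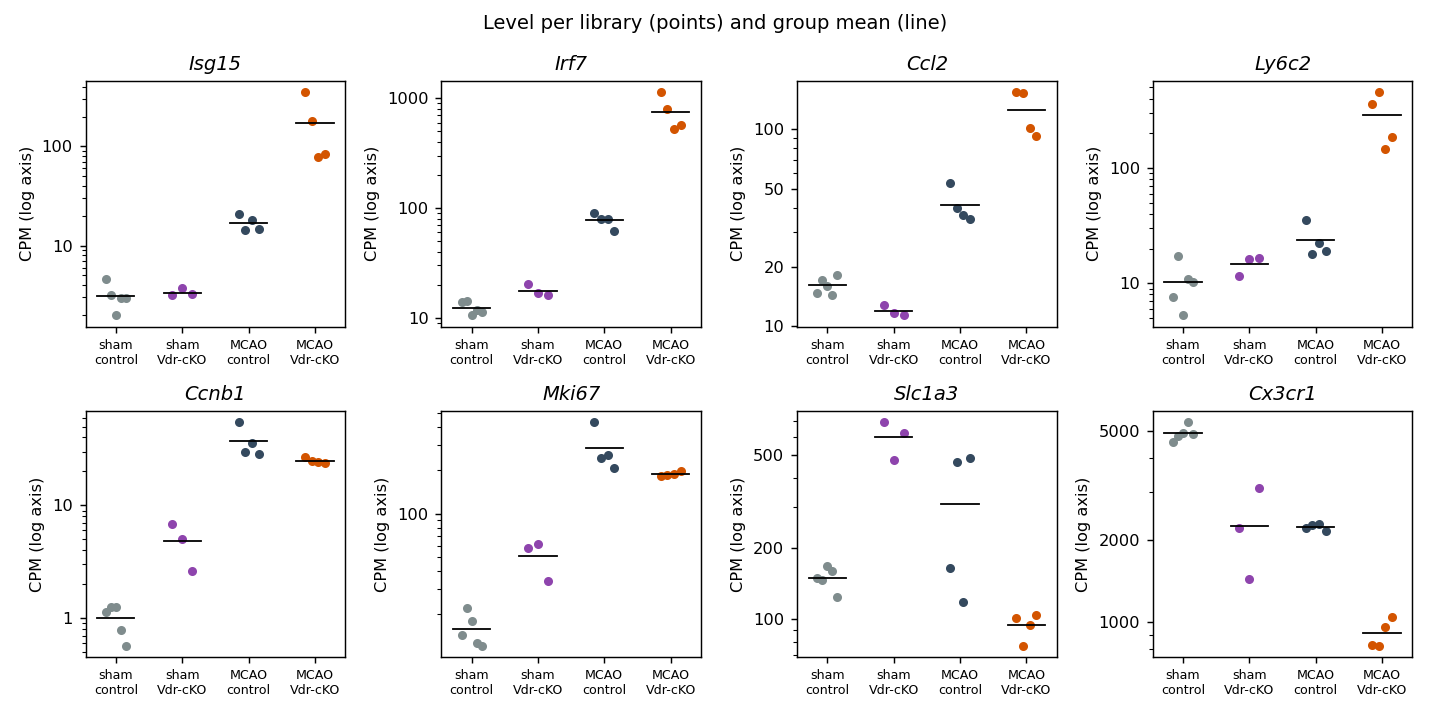
CPM of 8 genes in each of the 16 libraries on a log axis, by group, with a line at the group mean. In Isg15, Irf7, Ccl2 and Ly6c2 the 4 MCAO Vdr-cKO libraries lie above all others. In Ccnb1 and Mki67 the 3 sham Vdr-cKO libraries lie above the 5 sham controls, in Slc1a3 the order of the genotypes turns between surgeries, and Cx3cr1 is lower in Vdr-cKO in both.

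Promoters of positive genes are shown because these genes moved together. The ISRE core searched was GAAA, any 2 bases and GAAA again, on both strands, from 250 bases before to 50 after the start of the gene (RefSeq promoters on GRCm38.p6, which matched 11833 of the 17335 genes tested). It stood in 42 of 110 promoters of positive genes (38.2%), in 7 of 80 of negative genes (8.75%) and in 461 of 11833 of all genes tested (3.90%). GAS, searched as TTCNNNGAA, stood in 17.3%, 7.50% and 8.35% of these promoters. DR3, the direct repeat with 3 bases between that the vitamin D receptor is known to bind, stood in 0 of 110 and 0 of 80, and in 2 of 11833. With so few matches over all genes, sets of this size would hold none in any case, so the 0 counts tell nothing about them. These are matches of letters and not measured binding. The 150 bases before the start are given for the 4 positive genes named here with the largest interaction that hold the core there and have 1 promoter in the table, with every match, on either strand, in capitals: Isg15 at chr4:156200819-156200968 on the minus strand, Tgtp2 at chr11:49064213-49064362 on the minus strand, Ifi213 at chr1:173599273-173599422 on the minus strand and Ifi211 at chr1:173913047-173913196 on the minus strand.

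Isg15: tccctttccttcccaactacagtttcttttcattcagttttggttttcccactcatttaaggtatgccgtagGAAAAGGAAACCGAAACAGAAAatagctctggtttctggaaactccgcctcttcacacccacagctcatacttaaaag

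Tgtp2: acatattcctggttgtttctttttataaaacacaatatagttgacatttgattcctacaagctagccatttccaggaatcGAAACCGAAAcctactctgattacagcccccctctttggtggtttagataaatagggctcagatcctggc

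Ifi213: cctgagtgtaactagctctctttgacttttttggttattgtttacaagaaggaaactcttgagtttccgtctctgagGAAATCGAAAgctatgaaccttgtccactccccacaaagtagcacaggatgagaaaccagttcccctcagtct

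Ifi211: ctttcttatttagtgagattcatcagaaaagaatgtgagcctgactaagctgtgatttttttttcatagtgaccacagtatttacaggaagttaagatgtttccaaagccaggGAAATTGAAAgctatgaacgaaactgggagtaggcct

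In Isg15, matches that overlap begin 78, 72 and 66 bases before the start, and Tgtp2, Ifi213 and Ifi211 have 1 match each, which begins 70, 73 and 37 bases before it.

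The interferon-stimulated genes differed in size more than in direction. Xaf1 and Bst2, the antiviral tetherin, passed with 1.51 (adjusted p = 3.03e-05) and 1.66 (adjusted p = 4.81e-05), and Oasl1 with 2.91 (adjusted p = 0.00962). By family, 8 of 9 oligoadenylate synthetase genes, 4 of 6 Ifit genes, 7 of 12 Ifi200 genes, 6 of 8 Schlafen genes, 4 of 9 guanylate-binding proteins and 5 of 12 Parp genes were positive by adjusted p, and none of these families held a negative call. The Trim family, which is larger, had 10 positive calls of 48 and 1 negative, Trim59. Outside the list, Slfn4, a Schlafen gene of myeloid cells, counted 2958, 2579.5, 849 and 804 CPM in MCAO Vdr-cKO, 137 to 287 in MCAO control and 18.2 to 42.1 in sham libraries, with an interaction log2 of 3.0 (standard error 0.58, adjusted p = 0.00645). Ifi213 and Ifi47 had interactions of 3.0 (adjusted p = 3.03e-05) and 2.87 (adjusted p = 0.00599), Trim30c of 2.83 (adjusted p = 0.000177) and the processed pseudogene Gm6545 of 2.79 (adjusted p = 0.0177), whose call was lost without sham Vdr-cKO 1 (adjusted p up to 0.0601). The Ifi200, oligoadenylate synthetase, Schlafen and Trim30 genes lie in clusters of near-identical copies, so reads may be shared between neighbours and the value of a member is uncertain.

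The mean log2(CPM + 1) of the list was 8.51, 8.22, 7.53 and 7.68 in MCAO Vdr-cKO libraries 1 to 4 and 6.04 to 6.18 in MCAO controls, and 4.49 to 4.72 in sham Vdr-cKO and 4.28 to 4.49 in sham controls. The summed level of 17 monocyte markers moved the same way within the MCAO Vdr-cKO group, at 5675, 4451, 2515 and 2245 CPM, but ran from 3505 to 4913 CPM in MCAO controls, above libraries 3 and 4 of Vdr-cKO, and from 574 to 678 CPM in sham Vdr-cKO and 492 to 710.1 CPM in sham control libraries. Their mean log2(CPM + 1), in which each marker counts alike, was 7.24, 7.0, 5.98 and 5.89 in MCAO Vdr-cKO libraries 1 to 4. In MCAO control libraries 1 to 4 it was 6.12, 5.37, 5.69 and 5.65. Marker by marker, the median genotype log2 difference was 0.82 after MCAO and 0.14 after sham surgery. After MCAO 8 were higher and 2 lower at an unadjusted p under 0.05, and 4 and 1 by adjusted p. Lymphocyte markers, of which 7 of 20 passed the filter, summed to 179.5 to 259.9 CPM in MCAO Vdr-cKO and 192 to 226 CPM in MCAO control libraries, mostly Ighm, and their sum overlapped between the genotypes. Member by member, the 7 lymphocyte markers had a median genotype log2 difference of 1.80 after MCAO and -0.11 after sham surgery, with 5 of 7 higher and 1 lower after MCAO at an unadjusted p under 0.05 and 1, Cd4, by adjusted p. No share of all genes at the unadjusted p is given beside these counts. Cd8a counted 0.21, 0.961, 3.74 and 0.869 CPM in MCAO Vdr-cKO and 0, 0.26, 0.422 and 0.0662 CPM in MCAO control libraries, and the mean log2(CPM + 1) of the list was 2.14, 2.62, 3.14 and 2.76 in MCAO Vdr-cKO libraries 1 to 4, lowest in library 1, and 1.93 to 2.29 in MCAO controls. The part of such cells in the interferon values was not tested. Without MCAO Vdr-cKO libraries 1 and 2, which are highest in monocyte markers and in this list, 45 of 50 interferon-stimulated genes were still called, with Isg15 at 2.14 (adjusted p = 0.000671), Irf7 at 2.30 (adjusted p = 1.51e-05) and Slfn4 at 1.88 (adjusted p = 0.0237). Without sham control 2, 4 and 5 the count was 35 of 50, with Isg15 at 3.34 (adjusted p = 0.0621) and Slfn4 at 2.83 (adjusted p = 0.0543) no longer called and Irf7 at 2.76 (adjusted p = 0.00151). Leaving out any 1 library gave 44 to 49 of 50. By limma-voom the count was 40 of 50, and Isg15 was not called.

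Of the genes of the interferon-gamma response, 9 of 23 tested were called positive and 0 negative (median 1.28), and 20 of 23 higher in Vdr-cKO after MCAO. Tgtp2, an immunity-related GTPase that acts on vacuoles of intracellular pathogens, led the list. After MCAO, Tgtp2 stood at 27.9, 27.9, 18.8 and 21.6 CPM in Vdr-cKO libraries 1 to 4 and at 3.31, 4.04, 2.82 and 3.05 CPM in control libraries 1 to 4. In sham brains Tgtp2 counted 2.85, 2.99 and 2.62 CPM in the 3 Vdr-cKO libraries and 2.81, 5.06, 2.76, 2.7 and 2.48 CPM in the 5 control libraries. Only the MCAO Vdr-cKO libraries stood apart, and Tgtp2 did not differ with surgery in control mice (log2 0.06, standard error 0.21, adjusted p = 0.815), with an interaction log2 of 3.03 (standard error 0.32, adjusted p = 4.81e-05). Its close copy Tgtp1 had an interaction of 0.72 (adjusted p = 0.466), and reads may be split between them. Gbp4, a guanylate-binding protein, had the same form, with 21.6 to 32.3 CPM in MCAO Vdr-cKO and 4.02 to 7.44 CPM in the 12 other libraries, and an interaction log2 of 2.09 (standard error 0.26, adjusted p = 0.000186). Irgm1 and Irgm2, regulatory GTPases of the same system, passed with 1.32 (adjusted p = 0.000447) and 1.16 (adjusted p = 0.000447). The known interferon-gamma targets Cxcl9, Cxcl10, Irf1 and Ciita did not pass, at 1.28 (adjusted p = 0.0661), 1.43 (adjusted p = 0.323), 0.90 (adjusted p = 0.0609) and 0.71 (adjusted p = 0.161).

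Genes of MHC class I and its peptide supply had 14 positive and 0 negative calls of 23 (median 0.91). H2-T22 encodes a non-classical class I heavy chain. After MCAO, H2-T22 stood at 180.4, 127, 140.1 and 138 CPM in Vdr-cKO libraries 1 to 4 and at 39, 45.4, 40.2 and 42 CPM in control libraries 1 to 4. After sham surgery, H2-T22 stood at 33, 27 and 32.9 CPM in Vdr-cKO libraries 1 to 3 and at 26.3, 32.9, 20.3, 29 and 31.1 CPM in control libraries 1 to 5. The MCAO Vdr-cKO libraries lay above all others and the sham groups overlapped, with an interaction log2 of 1.66 (standard error 0.19, adjusted p = 0.000134). H2-T23, which presents peptides to natural killer receptors, and H2-T24 passed with 1.61 (adjusted p = 0.000177) and 1.40 (adjusted p = 0.000457), and the peptide transporter Tap1 with 1.29 (adjusted p = 0.000285). The immunoproteasome subunits Psmb8, Psmb9 and Psmb10 and the class I activator Nlrc5 were also positive, at 1.14 (adjusted p = 0.0116), 0.93 (adjusted p = 0.00204), 0.87 (adjusted p = 0.0222) and 1.22 (adjusted p = 0.00286). B2m, the light chain of class I, did not pass (0.48, adjusted p = 0.305), and neither did the loading chaperones Calr and Pdia3, at -0.07 and -0.23. Heavy chain genes of the Q and T regions are near-identical in places, and their values may be mixed. Of 11 genes of MHC class II and costimulation, 1 was called, Cd72, a receptor of B cells and myeloid cells, at 0.95 (standard error 0.24, adjusted p = 0.0424), and its call was lost without MCAO Vdr-cKO 1, 3 or 4, MCAO control 1, 2, 3 or 4, sham Vdr-cKO 1, 2 or 3, sham control 1 or 2 (adjusted p up to 0.121). The class II chains H2-Ab1, H2-Aa and Cd74 stood at 0.69 (adjusted p = 0.104), 0.35 (adjusted p = 0.39) and 0.58 (adjusted p = 0.151).

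The receptors of interferons were not among the genes called. Of 12 genes of interferon receptors and signalling tested, 1 was called, Irf5, a transcription factor downstream of Toll-like receptors, at 0.52 (standard error 0.13, adjusted p = 0.0411), and this call was lost without MCAO Vdr-cKO 1 or 2, MCAO control 1, 2, 3 or 4, sham Vdr-cKO 1 or 2, sham control 2, 4 or 5 (adjusted p up to 0.175). The receptor chains Ifnar1, Ifnar2, Ifngr1 and Ifngr2 had interactions of -0.06, 0.11, -0.26 and 0.19, none past the test (lowest adjusted p = 0.343). Stat2 and Irf9, which stand in the list of interferon-stimulated genes since interferon also raises them, were positive at 1.69 (adjusted p = 0.000186) and 0.60 (adjusted p = 0.00472). Of the interferon transcripts themselves, Ifnb1 stood between 0 and 1.61 CPM, under the filter, and others are not given here. In the fit with no filter on low counts 0 genes of the list of interferons, receptors and signalling were called, and Irf5 did not pass there. Of 20 nucleic acid sensors and Toll-like receptors, 5 were positive and 0 negative. They were Adar, which edits double-stranded RNA, at 1.02 (adjusted p = 0.00158), Ifi211 at 2.13 (adjusted p = 0.00686), the endosomal DNA receptor Tlr9 at 0.63 (adjusted p = 0.0173), the cytosolic DNA sensor Cgas at 0.61 (adjusted p = 0.0236) and the RNA receptor Tlr3 at 0.65 (adjusted p = 0.0424). Tlr9 lost its call without sham Vdr-cKO 1 or 2 (adjusted p up to 0.0695) and Cgas without MCAO control 2, sham Vdr-cKO 2 or 3 (adjusted p up to 0.0915). Tlr9 fell with MCAO in control mice (log2 -0.72, standard error 0.09, adjusted p = 2.63e-06) and stood at -0.09 (standard error 0.10, adjusted p = 0.447) with MCAO in Vdr-cKO mice. The adaptors Sting1, Mavs and Myd88 had interactions of 0.05, -0.08 and 0.48 and did not pass.

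Chemokines that attract monocytes and lymphocytes were called, and the main proinflammatory cytokines were not. Of 18 chemokines, 3 were positive and 0 negative, and of 14 cytokines, 1 was positive and 0 negative. Ccl2 is the main ligand of the monocyte receptor CCR2. After MCAO, Ccl2 stood at 154, 153, 102 and 92.4 CPM in Vdr-cKO libraries 1 to 4 and at 53.6, 40.1, 36.7 and 35.2 CPM in control libraries 1 to 4. After sham surgery, Ccl2 stood at 12.8, 11.7 and 11.4 CPM in Vdr-cKO libraries 1 to 3 and at 14.8, 17.3, 16, 14.5 and 18.3 CPM in control libraries 1 to 5. The order turned between the surgeries, since all MCAO Vdr-cKO libraries lay above the MCAO controls and all sham Vdr-cKO libraries below the sham controls, although the sham difference did not pass (log2 -0.44, standard error 0.18, adjusted p = 0.374). For Ccl2 the interaction log2 was 2.03 (standard error 0.24, adjusted p = 0.000166). Ccl7, another CCR2 ligand, and Ccl5, a chemokine of T cells and macrophages, passed with 2.05 (adjusted p = 0.00131) and 2.06 (adjusted p = 0.00127). Il18 encodes a cytokine that inflammasomes release. It counted 61.1, 52.8, 37.3 and 40.8 CPM in MCAO Vdr-cKO, 23.6 to 29 in MCAO control, 26.6 to 29.9 in sham Vdr-cKO and 30.5 to 34.9 in sham control libraries. All MCAO Vdr-cKO libraries lay above the 12 others, with an interaction log2 of 1.13 (standard error 0.18, adjusted p = 0.00141). Tnf, Il1b and Il6 had interactions of -0.11 (adjusted p = 0.937), 0.13 (adjusted p = 0.933) and -0.67 (adjusted p = 0.516). Il1b counted 1025, 1021, 426 and 373 CPM in MCAO Vdr-cKO and 1031, 368, 565 and 566 CPM in MCAO control libraries, which overlap.

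Of 17 monocyte markers, 3 were positive and 0 negative. Ly6c2 encodes the Ly6C antigen of inflammatory monocytes and is also induced by interferon. After MCAO, Ly6c2 stood at 359, 454, 146 and 184 CPM in Vdr-cKO libraries 1 to 4 and at 35.2, 18.1, 22.2 and 19.1 CPM in control libraries 1 to 4. In sham brains Ly6c2 counted 11.6, 16.1 and 16.6 CPM in the 3 Vdr-cKO libraries and 7.52, 17.1, 5.26, 11 and 10.3 CPM in the 5 control libraries. All MCAO Vdr-cKO libraries lay above all others, libraries 1 and 2 highest, and the interaction log2 was 3.07 (standard error 0.52, adjusted p = 0.00208), although its close copy Ly6c1 may share reads with it. Plac8 and Ms4a4c, also known as interferon-responsive genes of monocytes, passed with 2.59 (adjusted p = 0.0101) and 2.54 (adjusted p = 0.00871). Without MCAO Vdr-cKO 1 and 2 these stood at 2.27 (adjusted p = 0.00694), 1.61 (adjusted p = 0.0147) and 1.58 (adjusted p = 0.00578), and without sham control 2, 4 and 5 at 2.39 (adjusted p = 0.0543), 2.08 (adjusted p = 0.187) and 2.83 (adjusted p = 0.0337). By limma-voom 1 of the 17 markers was called, and Plac8 and Ms4a4c were not. Ccr2, the receptor that defines these monocytes, did not pass (0.74, adjusted p = 0.343), with 310.0, 331, 152 and 168 CPM in MCAO Vdr-cKO and 212, 130.1, 136 and 154 CPM in MCAO control libraries. F13a1 and Fn1 stood at -0.44 (adjusted p = 0.311) and -0.89 (adjusted p = 0.232), and S100a4 was at 0 in all 3 sham Vdr-cKO libraries. The part of a changed mix of cells in these values was not tested. Of 13 border macrophage markers, 1 was called, Siglec1, a sialic acid-binding receptor of macrophages that interferon raises, at 1.13 (standard error 0.24, adjusted p = 0.0144), and its call was lost without sham Vdr-cKO 1 (adjusted p up to 0.0626). Mrc1, Lyve1 and Cd163 stood at -0.46 (adjusted p = 0.0695), 0.62 (adjusted p = 0.373) and 0.61 (adjusted p = 0.25).

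Among microglial states, the homeostatic list had 0 calls of 20 and the disease-associated list 1 of 23. Axl, a receptor tyrosine kinase that recognises dying cells, was the member called. After MCAO, Axl stood at 578, 498, 541 and 572 CPM in Vdr-cKO libraries 1 to 4 and at 123, 184, 177 and 175 CPM in control libraries 1 to 4. In sham brains Axl counted 77.8, 79.5 and 73.3 CPM in the 3 Vdr-cKO libraries and 80.5, 77.2, 59, 62.5 and 59 CPM in the 5 control libraries. The MCAO Vdr-cKO libraries lay above the MCAO controls with no overlap, and the interaction log2 was 1.55 (standard error 0.18, adjusted p = 0.000134). The rest of the list, with Trem2, Apoe, Spp1 and Clec7a at 0.08, 0.19, -0.55 and 0.15, did not pass, and the list median was 0.02. The median change of its members with MCAO was a log2 of 2.45 in control and 2.53 in Vdr-cKO mice. Of 17 complement and Fc receptor genes, 3 were positive and 1 negative. The activating Fc receptors Fcgr1 and Fcgr4 and the complement component C4b were positive at 1.01 (adjusted p = 0.00131), 0.79 (adjusted p = 0.0097) and 1.04 (adjusted p = 0.0317), and C4b lost its call without MCAO Vdr-cKO 3 or 4, MCAO control 1, 2 or 4, sham Vdr-cKO 1, 2 or 3, sham control 2 (adjusted p up to 0.105).

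Ly6a, Tnfsf10, Ccnd1, Pttg1 and Pou3f1 stand in no list and were picked after their values were seen. Ly6a, a surface antigen that interferon raises, counted 156 to 169 CPM in MCAO Vdr-cKO and 22 to 31.1 CPM in MCAO control libraries, with an interaction log2 of 2.60 (standard error 0.35, adjusted p = 0.000447). Tnfsf10, the death ligand TRAIL, stood at 25.5 to 63.2 CPM in MCAO Vdr-cKO and 10.3 to 15.2 CPM elsewhere, with 1.71 (standard error 0.32, adjusted p = 0.00528). The positive genes also held Ccnd1, the cyclin that drives entry into the cycle, at 1.08 (adjusted p = 0.0143), and Pttg1, a securin that holds back the separation of sister chromatids, at 1.08 (adjusted p = 0.00929). The largest positive value belonged to Pou3f1, a transcription factor, at 5.24 (standard error 1.20, adjusted p = 0.0222), but with 0.415 to 1.4 CPM in MCAO Vdr-cKO, 0 to 0.141 in MCAO control, 0 to 0.235 in sham Vdr-cKO and 0.12 to 0.597 in sham control libraries. Several Pou3f1 values are 0, so the fitted value is no bound on its size, and its call was lost without MCAO control 4, sham Vdr-cKO 1 or 3 (adjusted p up to 0.0646). In the lists of other cells, Kdr, the endothelial VEGF receptor, and Cnp, known from oligodendrocytes and also induced by interferon, were positive at 1.33 (adjusted p = 0.0425) and 0.79 (adjusted p = 0.0355). Kdr lost its call without MCAO Vdr-cKO 1 or 2, MCAO control 1, 2, 3 or 4, sham Vdr-cKO 1, 2 or 3, sham control 1 or 3 (adjusted p up to 0.131), and Cnp without MCAO control 1, 2, 3 or 4, sham Vdr-cKO 1 or 2, sham control 1, 2, 4 or 5 (adjusted p up to 0.139). The other endothelial and oligodendrocyte markers were not called, and Cldn5, Flt1 and Mbp stood at 0.43, 0.45 and -0.03.

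Mitotic genes formed the largest group with a negative interaction. Of 32 tested, 27 were called negative and 0 positive, with a median interaction log2 of -1.82. The securin Pttg1, called positive at 1.08, is not among the 32, so the count of 0 holds for the members of this list only. After sham surgery 28 of the 32 were higher in Vdr-cKO, and after MCAO 0 of 32 differed by genotype in edgeR's quasi-likelihood test (0 higher and 8 lower at an unadjusted p under 0.05, with no share of all genes given at that p), with medians of 1.47 and -0.34. Ccnb1, the cyclin that brings cells into mitosis, had the most negative value of the list. After MCAO, Ccnb1 stood at 26.8, 24.9, 24.2 and 23.6 CPM in Vdr-cKO libraries 1 to 4 and at 54.4, 29.9, 35.8 and 28.7 CPM in control libraries 1 to 4. After sham surgery, Ccnb1 stood at 6.81, 5.04 and 2.62 CPM in Vdr-cKO libraries 1 to 3 and at 1.13, 1.25, 1.25, 0.78 and 0.573 CPM in control libraries 1 to 5. The sham Vdr-cKO libraries all lay above the sham controls, and the MCAO Vdr-cKO libraries all lay below the MCAO controls, in which library 1 was highest. The genotype log2 difference was 2.26 (standard error 0.31, adjusted p = 0.000858) after sham surgery and -0.58 (standard error 0.22, adjusted p = 0.161) after MCAO, which gave an interaction log2 of -2.84 (standard error 0.38, adjusted p = 0.000411). Mki67 encodes the proliferation marker Ki-67. After MCAO, Mki67 stood at 183, 186, 189 and 197 CPM in Vdr-cKO libraries 1 to 4 and at 430.5, 243, 257 and 207 CPM in control libraries 1 to 4. After sham surgery, Mki67 stood at 57.7, 61.8 and 34.2 CPM in Vdr-cKO libraries 1 to 3 and at 14.4, 22.2, 18, 12.6 and 12.2 CPM in control libraries 1 to 5. As for Ccnb1, the genotypes did not overlap in either surgery and stood in opposite order, with the sham difference alone past the test. Mki67 had an interaction log2 of -2.28 (standard error 0.31, adjusted p = 0.000457). Mki67 rose with MCAO in both genotypes, by a log2 of 4.16 in control and 1.88 in Vdr-cKO mice (adjusted p = 5.12e-11 and 4.53e-06). So the sham Vdr-cKO libraries held more of this mRNA than sham controls but far less than any MCAO library.

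The checkpoint kinase Bub1, the kinetochore protein Nuf2, the spindle proteins Hmmr, Tpx2, Aspm and Fam83d, the motor Kif11 and Pimreg followed, with interaction log2 values of -2.74, -2.67, -2.69, -2.20, -2.55, -2.58, -2.02 and -2.42 (adjusted p from 0.000584 to 0.00201). Their genotype log2 differences ran from 1.61 to 2.30 after sham surgery and from -0.50 to -0.15 after MCAO. In sham controls several of these genes were near the limit of detection, as for Bub1 with 0.535 to 1.58 CPM against 2.44 to 6.81 CPM in sham Vdr-cKO. By family, 9 of 34 kinesins, 5 of 10 cyclins, 4 of 7 Cdca genes and 2 of 21 Cenp genes were negative, while the neuronal kinesin Kif5c and Ccnd1 were the members called positive. Cdc20, Ndc80, Foxm1, Cenpf and Plk1, the 5 of the list that did not pass, stood at -1.23, -1.05, -1.01, -0.92 and -0.87. Genes of DNA replication gave fewer calls, with 6 of 28 called negative and 0 positive, a median of -0.71, and 10 higher in Vdr-cKO after sham surgery. Leaving out any 1 library gave 0 to 9 negative calls of 28, with 0 without sham Vdr-cKO 1. The count was 0 without MCAO Vdr-cKO 3 and 4, and 2 by limma-voom. Uhrf1, which helps to copy DNA methylation, was called at -1.58 (adjusted p = 0.0141), the helicase subunits Mcm2 and Mcm5 at -0.88 (adjusted p = 0.023) and -0.97 (adjusted p = 0.0369), and Rrm1, of the ribonucleotide reductase, at -0.77 (adjusted p = 0.0281). Single libraries ended these calls, that of Uhrf1 without sham Vdr-cKO 1 (adjusted p up to 0.069), that of Mcm2 without MCAO Vdr-cKO 2, sham Vdr-cKO 1 (adjusted p up to 0.112), that of Mcm5 without MCAO Vdr-cKO 2, 3 or 4, sham Vdr-cKO 1, 2 or 3, sham control 2, 4 or 5 (adjusted p up to 0.0967) and that of Rrm1 without MCAO Vdr-cKO 2 or 3, sham Vdr-cKO 1 or 2, sham control 4 or 5 (adjusted p up to 0.11). Pcna, the replication clamp, stood at -0.18 (adjusted p = 0.63).

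Promoters of mitotic genes are shown for the same reason as above. CCAAT stood in 58 of 80 promoters of negative genes (72.5%), in 39 of 110 of positive genes (35.5%) and in 42.4% of all 11833. The CHR, searched as TTTGAA, stood in 44 of 80 (55.0%), 25 of 110 (22.7%) and 14.9%. The same 150 bases are given for the 4 mitotic genes named here with the smallest adjusted p that hold either motif, with matches on either strand in capitals (on the other strand CCAAT reads ATTGG and TTTGAA reads TTCAAA): Ccnb1 at chr13:100786487-100786636 on the minus strand, Mki67 at chr7:135716380-135716529 on the minus strand, Kif11 at chr19:37376232-37376381 on the plus strand and Hmmr at chr11:40733438-40733587 on the minus strand.

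Ccnb1: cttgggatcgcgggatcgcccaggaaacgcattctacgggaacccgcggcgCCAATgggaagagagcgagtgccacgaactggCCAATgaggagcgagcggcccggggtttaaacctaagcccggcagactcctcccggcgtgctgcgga

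Mki67: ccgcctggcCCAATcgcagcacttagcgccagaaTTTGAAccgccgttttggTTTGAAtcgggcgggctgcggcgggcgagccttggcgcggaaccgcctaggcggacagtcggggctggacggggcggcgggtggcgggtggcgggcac

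Kif11: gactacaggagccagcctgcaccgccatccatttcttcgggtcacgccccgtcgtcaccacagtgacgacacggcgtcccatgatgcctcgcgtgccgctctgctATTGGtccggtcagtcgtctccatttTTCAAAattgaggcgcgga

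Hmmr: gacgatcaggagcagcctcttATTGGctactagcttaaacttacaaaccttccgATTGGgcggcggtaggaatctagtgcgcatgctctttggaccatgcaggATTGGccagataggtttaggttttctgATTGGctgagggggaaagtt

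Ccnb1 holds CCAAT boxes that begin 99 and 67 bases before the start, and Hmmr holds 4, at 129, 96, 47 and 20 bases. Mki67 holds both motifs within matches at 141, 116 and 98 bases, and Kif11 at 45 and 19 bases.

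The mean log2(CPM + 1) of the mitotic list was 3.27, 3.18 and 2.62 in sham Vdr-cKO, 1.79 to 2.02 in sham control, 4.68 to 4.83 in MCAO Vdr-cKO and 5.60, 4.75, 5.01 and 4.68 in MCAO control libraries 1 to 4. MCAO control library 1 stood above the rest of its group, and sham Vdr-cKO library 3 below its own. Leaving out any 1 library left 23 to 29 of 32 calls, and leaving out sham control 2, 4 and 5 left 18, with Ccnb1 at -2.59 (adjusted p = 0.012) and Mki67 at -2.26 (adjusted p = 0.0063). By limma-voom 22 of the 32 were called. The sham Vdr-cKO group holds 3 libraries, and without its library 1 or 2 the count of all negative genes was 71 each time in place of 102. The neutrophil and lymphocyte markers had 0 calls of 13 and 0 of 7, and the summed lymphocyte level was 393 to 437 CPM in sham Vdr-cKO and 323 to 407 CPM in sham control libraries. At an unadjusted p under 0.05 these lists held 0 and 3 genes, by DESeq2 0 and 1, and by limma-voom 0 and 1.

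**Figure D3:**
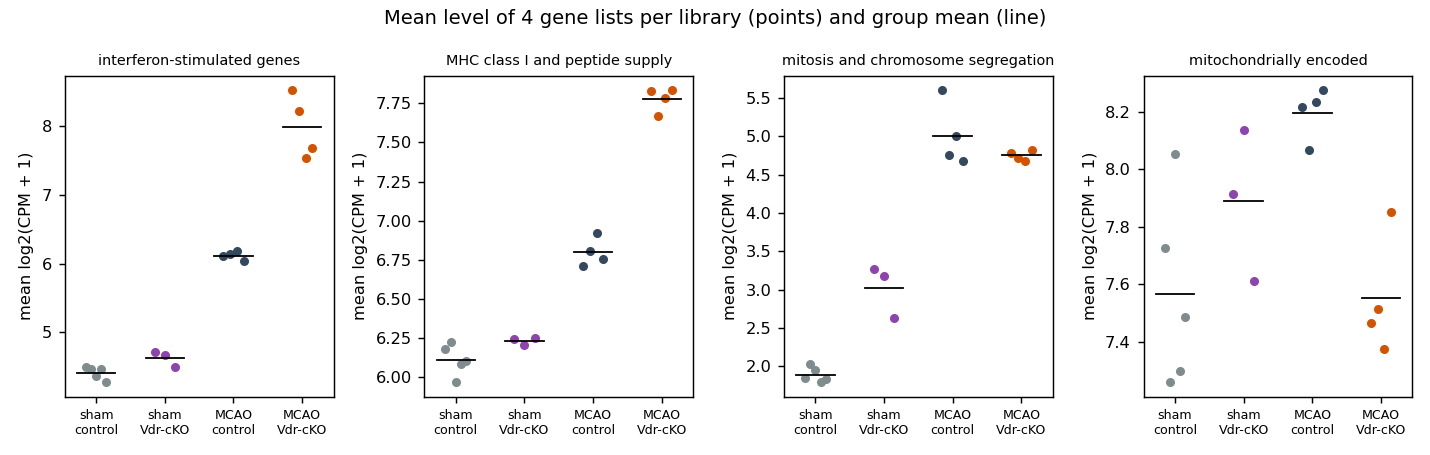
Mean log2(CPM + 1) of 4 gene lists in each of the 16 libraries, by group. The interferon-stimulated and MHC class I lists are highest in the 4 MCAO Vdr-cKO libraries, the mitotic list is higher in the 3 sham Vdr-cKO than in the 5 sham control libraries, and the mitochondrially encoded list overlaps between the sham groups.

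For 5 genes the genotype difference passed the test in both surgeries in opposite directions. Slc1a3 (chr15:8634124-8710764) encodes the glutamate transporter GLAST, best known from astrocytes. After MCAO, Slc1a3 stood at 101, 76.9, 93.8 and 104 CPM in Vdr-cKO libraries 1 to 4 and at 165, 470.1, 118 and 486 CPM in control libraries 1 to 4. After sham surgery, Slc1a3 stood at 691, 478 and 619.9 CPM in Vdr-cKO libraries 1 to 3 and at 149, 146, 168, 160.4 and 124 CPM in control libraries 1 to 5. Every sham Vdr-cKO library lay above every sham control, and every MCAO Vdr-cKO library below every MCAO control, where libraries 2 and 4 were far above 1 and 3. The genotype log2 difference was 2.0 (standard error 0.32, adjusted p = 0.00273) after sham surgery and -1.72 (standard error 0.32, adjusted p = 0.00262) after MCAO, and the interaction log2 was -3.72 (standard error 0.46, adjusted p = 0.000186). With MCAO, Slc1a3 rose in control mice (log2 1.05) and fell in Vdr-cKO mice (log2 -2.67). Gm37310, a transcript model that lies inside Slc1a3 on the same strand, and Ranbp3l, on the same chromosome, had the same pattern, and reads of Gm37310 and Slc1a3 cannot be told apart with certainty. Ranbp3l counted 1.75, 1.02, 1.13 and 0.936 CPM in the 4 Vdr-cKO libraries after MCAO, and 4.69, 9.31, 3.31 and 12.6 CPM in the 4 control libraries. In sham brains Ranbp3l counted 11.6, 8.39 and 13.4 CPM in the 3 Vdr-cKO libraries and 2.27, 2.68, 2.96, 2.4 and 3.05 CPM in the 5 control libraries. In Ranbp3l, too, the genotypes did not overlap in either surgery, and MCAO control libraries 2 and 4 were highest in their group, and the interaction log2 was -4.68 (standard error 0.48, adjusted p = 4.81e-05) and -5.51 (standard error 0.61, adjusted p = 8.33e-05) for Gm37310. Of the 11 other astrocyte markers tested, 0 were called by edgeR's quasi-likelihood test, 3 were positive at an unadjusted p under 0.05, and DESeq2 called 1 and limma-voom 0. Without Slc1a3, the 11 astrocyte markers summed to 70.4 to 109 CPM in MCAO Vdr-cKO, 59.9 to 97.6 in MCAO control, 381 to 478 in sham Vdr-cKO and 150.2 to 423 in sham control libraries. Gfap and Aqp4 had interactions of 0.84 (adjusted p = 0.327) and 0.90 (adjusted p = 0.415), and Gfap counted 0.557 to 1.73 CPM in sham Vdr-cKO and 1.31 to 2.37 CPM in sham control libraries.

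The remaining genes of this kind changed less. Sat1, which breaks down polyamines, counted 566, 575, 493 and 552 CPM in MCAO Vdr-cKO and 359, 399, 419 and 424 CPM in MCAO control libraries. After sham surgery, Sat1 stood at 295, 287 and 276 CPM in Vdr-cKO libraries 1 to 3 and at 364, 385, 346, 354 and 355 CPM in control libraries 1 to 5. It was higher in Vdr-cKO after MCAO and lower after sham surgery, with no overlap in either, and the interaction log2 was 0.78 (standard error 0.10, adjusted p = 0.00037). Scd2, a desaturase of fatty acid synthesis, went the other way, from 0.46 (standard error 0.11, adjusted p = 0.0497) after sham surgery to -0.49 (standard error 0.11, adjusted p = 0.00781) after MCAO, with an interaction log2 of -0.95 (standard error 0.15, adjusted p = 0.00131). Gm42047, a gene model without a known role picked after its values were seen, was higher in Vdr-cKO in both surgeries. Gm42047 counted 409, 402, 399 and 377 CPM in the 4 Vdr-cKO libraries after MCAO, and 201, 81.7, 241 and 149.8 CPM in the 4 control libraries. In sham brains Gm42047 counted 241, 391 and 156 CPM in the 3 Vdr-cKO libraries and 23.7, 21.9, 24.6, 29 and 18 CPM in the 5 control libraries. Its genotype log2 difference was 3.49 after sham surgery and 1.24 after MCAO, so that the negative interaction, -2.25 (standard error 0.38, adjusted p = 0.00216), is a smaller rise and not a reversal.

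Genes of the mitochondrial genome tended to a negative interaction. All 12 tested had a negative value (median -0.99), and 4 were called, namely mt-Nd1, mt-Nd5 and mt-Nd4, subunits of complex I, and mt-Cytb, of complex III. After MCAO, mt-Nd1 stood at 1359, 1130.0, 1176 and 1717 CPM in Vdr-cKO libraries 1 to 4 and at 2269.8, 1846, 2310.5 and 2182 CPM in control libraries 1 to 4. After sham surgery, mt-Nd1 stood at 2178, 2607 and 1594 CPM in Vdr-cKO libraries 1 to 3 and at 1508, 1191, 1969.8, 1104 and 1294 CPM in control libraries 1 to 5. MCAO Vdr-cKO libraries lay below MCAO controls, while the sham groups overlapped, and sham control 2, 4 and 5 lay below sham control 1 and 3. The interaction log2 was -1.27 (standard error 0.26, adjusted p = 0.00874) for mt-Nd1, -1.20 (adjusted p = 0.00869) for mt-Cytb, -1.25 (adjusted p = 0.0229) for mt-Nd5 and -1.03 (adjusted p = 0.0413) for mt-Nd4. Without sham control 2, 4 and 5 none of the 4 was called, with mt-Nd1 at -0.97 (adjusted p = 0.11) and mt-Cytb at -0.88 (adjusted p = 0.091), and without MCAO Vdr-cKO 1 and 2 none was called either, at -1.16 (adjusted p = 0.0519) and -1.05 (adjusted p = 0.0541). At an unadjusted p under 0.05, 10 of the 12 were negative, and DESeq2 called 7 and limma-voom 4. Of single libraries, mt-Nd5 lost its call without MCAO Vdr-cKO 3, MCAO control 3 or 4, sham Vdr-cKO 1 or 2 (adjusted p up to 0.0881), and mt-Nd4 without MCAO Vdr-cKO 1, 2 or 3, MCAO control 1, 3 or 4, sham Vdr-cKO 1 or 2, sham control 2, 4 or 5 (adjusted p up to 0.137).

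The lists of cholesterol synthesis, lipid handling and the integrated stress response held 1 or 2 calls each, beside 1.40% of all genes called positive and 1.15% negative. Of 18 genes of cholesterol synthesis, Sqle, the squalene epoxidase, was the member called, at -0.95 (standard error 0.21, adjusted p = 0.0157), and its call was lost without sham Vdr-cKO 1 (adjusted p up to 0.052). It was higher in sham Vdr-cKO (18.8 to 19.5 CPM) than in sham control libraries (9.04 to 14 CPM) and overlapped between the genotypes after MCAO. Of 15 genes of lipid handling, Npc2, a lysosomal cholesterol carrier, was positive at 0.57 (adjusted p = 0.0258), lost without MCAO control 1 or 4, sham Vdr-cKO 1 or 2, sham control 2 (adjusted p up to 0.11), and Scd2 was negative. Of 15 genes of the integrated stress response, Psat1, of serine synthesis, was negative at -0.72 (standard error 0.14, adjusted p = 0.00734), with 97.6 to 128 CPM in MCAO Vdr-cKO and 159 to 166 CPM in MCAO control libraries, and overlapping sham groups. Thbs2, a thrombospondin, and Nxpe5, both picked after their values were seen, were negative at -1.12 (adjusted p = 0.00197) and -1.64 (adjusted p = 0.0181), and Nxpe5 lost its call without sham Vdr-cKO 2 (adjusted p up to 0.155). Nxpe5 rose with MCAO from 0.597 to 2.82 CPM in sham libraries to 39.2 to 59 CPM in control and 24.9 to 34.4 CPM in Vdr-cKO mice.

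Several lists had 0 calls of the interaction by edgeR's quasi-likelihood test. They were the p53 targets (0 of 16), the homeostatic microglia genes (0 of 20), glycolysis and hypoxia (0 of 20), NRF2 and iron handling (0 of 15), the immediate early genes (0 of 22), NF-kappaB and its feedback (0 of 16), the vitamin D axis (0 of 13) and the neuron markers (0 of 8). At an unadjusted p under 0.05 they held, in this order, 4, 3, 2, 4, 8, 3, 0 and 0 genes, against 14.8% of all genes tested. The 8 immediate early genes were all positive, as were 7.09% of all genes at that p. DESeq2 called 1, 0, 0, 1, 0, 0, 0 and 0 of them, and limma-voom 0 in each list. Of the 16 p53 targets, 8 were higher in Vdr-cKO after MCAO and 3 after sham surgery. Cdkn1a, the cell cycle inhibitor p21, counted 76.3 to 126 CPM in sham Vdr-cKO and 15.1 to 37.2 CPM in sham control libraries, and 282 to 383 and 116 to 174 CPM after MCAO. Its log2 difference was 2.03 (standard error 0.21, adjusted p = 0.000121) after sham surgery and 1.18 (standard error 0.21, adjusted p = 0.00128) after MCAO, and the interaction, -0.85 (standard error 0.29, adjusted p = 0.164), did not pass. Phlda3 and Eda2r, also targets of p53, differed by genotype by a log2 of 2.17 (adjusted p = 7.32e-05) and 2.28 (adjusted p = 0.017) after MCAO and stood at 1.30 (adjusted p = 0.0279) and 2.82 (adjusted p = 0.00442) after sham surgery, on low levels of at most 12.7 and 1.52 CPM. In the vitamin D axis, Rxra, the partner of the receptor, stood at -0.21 (standard error 0.16, adjusted p = 0.599). The 22 immediate early genes, which tissue dissociation is known to raise, had a median of 0.46, with summed levels of 5030.4 to 8976 CPM in MCAO Vdr-cKO, 4827 to 7182 in MCAO control, 4721 to 5089.6 in sham Vdr-cKO and 4664 to 8015 in sham control libraries, which overlap.

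**Figure D4:**
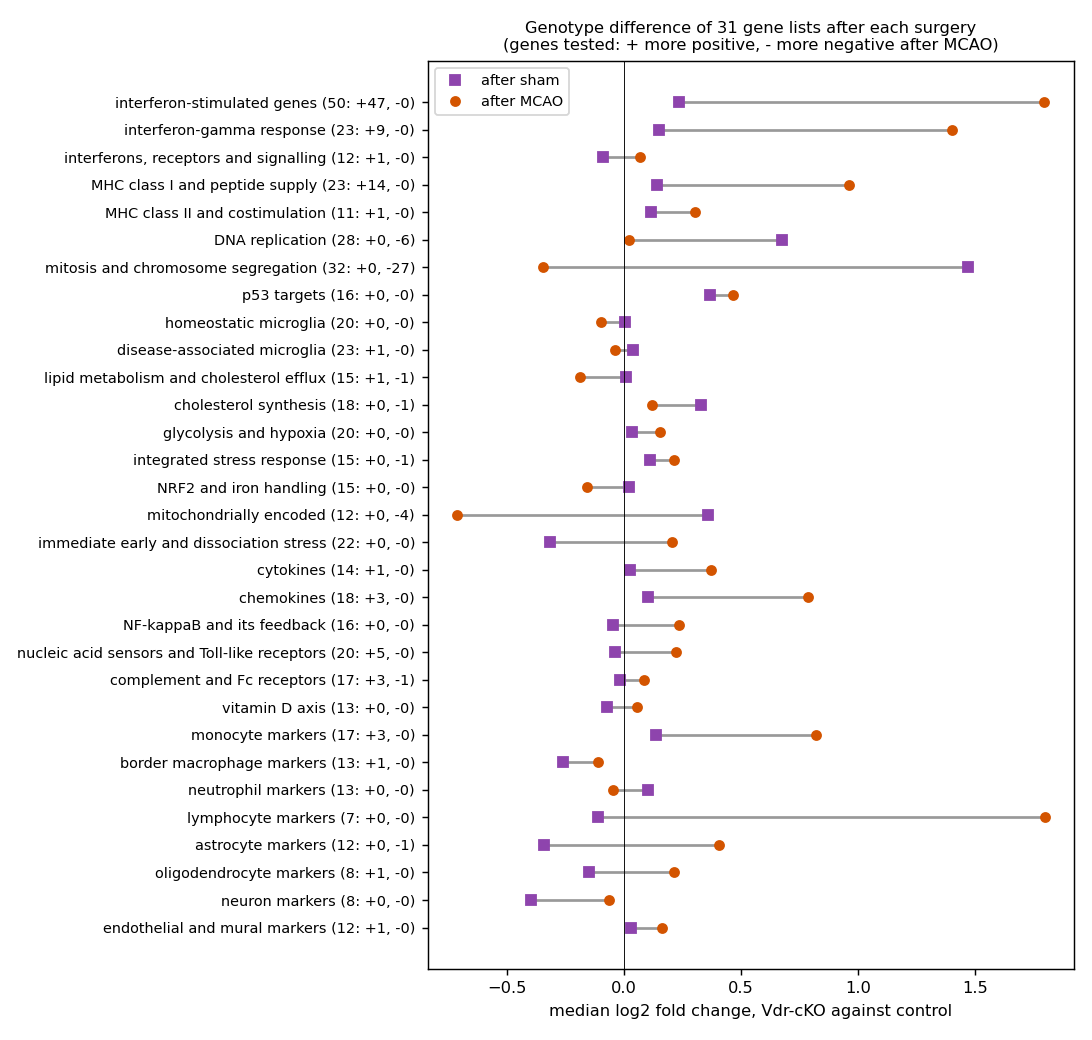
Median genotype log2 difference of the tested members of 31 gene lists after sham surgery (squares) and after MCAO (circles), with the number of members called more positive and more negative by adjusted p. The interferon-stimulated list lies at 0.24 and 1.80 and the mitotic list at 1.47 and -0.34. Other lists also lie away from 0 in 1 or both surgeries. Among them are the lymphocyte markers (-0.11 and 1.80), the interferon-gamma response (0.15 and 1.40) and MHC class I (0.14 and 0.96). The monocyte markers lie at 0.14 and 0.82, chemokines at 0.10 and 0.79, DNA replication at 0.67 and 0.02, and mitochondrially encoded genes at 0.36 and -0.71.

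The counts depended on the libraries used and on the tool. Leaving out 1 library at a time gave 132 to 192 positive and 71 to 130 negative genes. By adjusted p alone the ranges were 166 to 368 and 105 to 358 against 243 and 199, and both highest counts came without sham control 3. The lowest negative count was 105 without sham Vdr-cKO 1, and without sham Vdr-cKO 2 it was 111. Without MCAO Vdr-cKO 1 and 2, 130 of the 159 positive and 69 of the 102 negative genes were still called by adjusted p in the same direction. Without sham control 2, 4 and 5 these were 102 and 46, and without sham control 1 and 3 they were 156 and 98. Of the 74 named genes that were called, 11 lost the call without MCAO Vdr-cKO 1 and 2, namely Irf5 at 0.44 (adjusted p = 0.124), Cd72 at 1.0 (adjusted p = 0.0703), Rrm1 at -0.84 (adjusted p = 0.0518), mt-Cytb at -1.05 (adjusted p = 0.0541), mt-Nd1 at -1.16 (adjusted p = 0.0519), mt-Nd5 at -1.25 (adjusted p = 0.08), mt-Nd4 at -0.92 (adjusted p = 0.152), Cgas at 0.56 (adjusted p = 0.0859), Siglec1 at 0.93 (adjusted p = 0.0863), Cnp at 0.59 (adjusted p = 0.0648) and Kdr at 0.77 (adjusted p = 0.216). Ifi47, Tnfsf10 and Ifi211 kept theirs, at 1.71 (adjusted p = 0.000894), 1.12 (adjusted p = 0.00471) and 1.45 (adjusted p = 0.00174). Without MCAO Vdr-cKO 3 and 4, 8 lost the call, namely Cd72, Uhrf1, Mcm2, Rrm1, Mcm5, Sqle, C4b and Nxpe5. Without sham control 2, 4 and 5, 25 lost the call, among them, besides those already given, Oasl1 at 3.16 (adjusted p = 0.0563), Gm6545 at 2.40 (adjusted p = 0.423), Irf5 at 0.35 (adjusted p = 0.413), Cd72 at 1.01 (adjusted p = 0.119), Mcm2 at -0.76 (adjusted p = 0.233), Rrm1 at -0.69 (adjusted p = 0.227), Mcm5 at -0.88 (adjusted p = 0.26), Npc2 at 0.46 (adjusted p = 0.267), Sqle at -0.68 (adjusted p = 0.164), mt-Nd5 at -0.89 (adjusted p = 0.195), mt-Nd4 at -0.67 (adjusted p = 0.298), Ifi211 at 2.13 (adjusted p = 0.0884), Tlr9 at 0.60 (adjusted p = 0.0893), Cgas at 0.57 (adjusted p = 0.173), C4b at 1.05 (adjusted p = 0.0946), Cnp at 0.70 (adjusted p = 0.257), Ccnd1 at 0.88 (adjusted p = 0.179), Pttg1 at 0.99 (adjusted p = 0.108) and Pou3f1 at 5.78 (adjusted p = 0.0505). In none of the 29 alternatives did any of the 159 positive or 102 negative genes change its direction. Against a log2 difference of 1, which asks for more than a difference from 0, 14 positive and 9 negative genes passed.

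**Figure D5:**
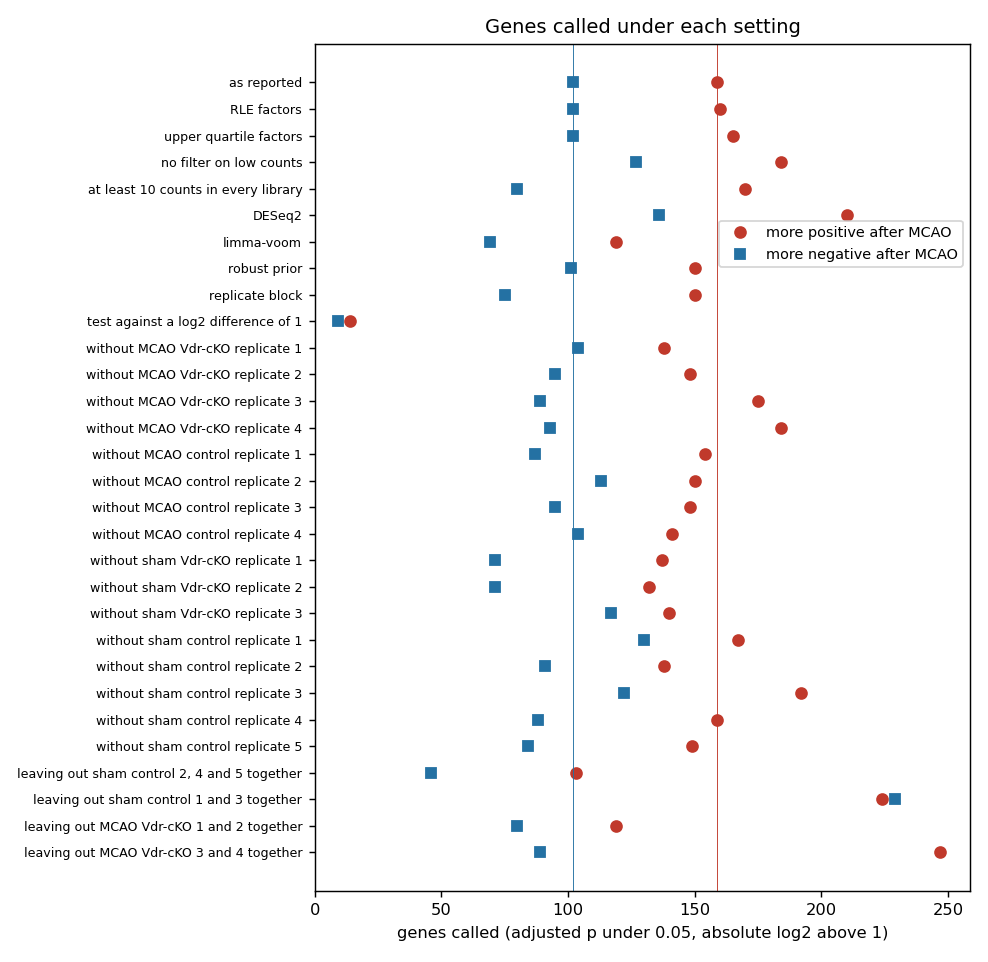
Number of genes called more positive (red) and more negative (blue) after MCAO in each alternative setting, with adjusted p under 0.05 and a log2 difference above 1. Most settings lie near 159 and 102, the lowest are the test against a log2 difference of 1 (14 and 9) and the fit without sham control 2, 4 and 5 (103 and 46), and the highest are the fits without MCAO Vdr-cKO 3 and 4 (247 positive) and without sham control 1 and 3 (229 negative).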

How the data were processed

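Bulk RNA-seq counts of microglia/macrophages from 16 samples in 4 groups were analysed. The authors deposited 1 table of whole-number counts per gene, not normalized, with 1 column per library. Per the submitters' processing notes, bcl2fastq, TopHat, HISAT2 2.1.0, limma and the GRCm38 build were used; the counting tool, its annotation and its use of strand are not given in the sources used here. Isolation by CD11b beads with poly-A selection is described in one source and sorting of CD11b+ CD45int cells with ribosomal RNA depletion in another, and which applies is not settled. Columns were matched to samples by name, and no per-sample column was left over. Genes that carry an identifier but no symbol (240, 0.0669 to 0.163% of counts) were kept in the fit.

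Low genes were filtered with filterByExpr by group, libraries were scaled by TMM, and a model with 4 group means was fitted with edgeR 4.0.16 (R 4.3.3). The contrast was tested with edgeR's quasi-likelihood test over all 17335 genes with Benjamini-Hochberg adjustment. Standard errors are the absolute log2 value divided by the square root of F. Counts of at least 13795946 per library limit the precision of genes near the filter. On simulated counts for this contrast over 16719 genes, 200 of them changed, 74% of genes changed by a log2 of 1 and 96% of those changed by a log2 of 2 were recovered, and 6.08% of calls were false. The changed genes were drawn only from genes with higher mean counts, and the spread of each gene was taken from the trend over all genes. These rates therefore do not cover genes near the filter or genes of unusual spread.

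The members and lists were chosen with earlier results of these data known. Named genes are Vdr and Cx3cr1, the 10 called genes with the largest and the 10 with the most negative interaction that reach 5 CPM in a group mean, up to 4 called genes per list by adjusted p, and up to 8 called genes with opposite genotype differences; 8 more were picked after their values were seen, and list members that were not called are given as values. A gene that this rule names is not reported here. Of 564 list genes, 563 are in the table and 534 were tested. Positions of genes are from GENCODE mouse release 21 (31473 identifiers matched), and promoters from RefSeq on GRCm38.p6. Alternatives were other scaling factors, filters and prior, DESeq2 1.42.0, limma-voom (limma 3.58.1), a replicate block, a test against a log2 difference of 1, and leaving out libraries.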

Additional observations from a re-analysis of the deposited data

Results flagged for a closer look

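The genotype difference itself differed between the surgeries for 74 genes named by rule or picked after their values were seen (interaction, edgeR's quasi-likelihood test, adjusted p under 0.05). The interaction log2 values of the 47 positive genes were Pou3f1 5.24, Isg15 3.25, Ifi44 3.15, Ly6c2 3.07, Tgtp2 3.03, Slfn4 3.00, Ifi213 3.00, Oasl1 2.91, Ifi47 2.87, Trim30c 2.83, Gm6545 2.79, Irf7 2.77, Ly6a 2.60, Plac8 2.59, Ms4a4c 2.54, Oas2 2.31, Ifi211 2.13, Gbp4 2.09, Ccl5 2.06, Ccl7 2.05, Ccl2 2.03, Tnfsf10 1.71, Bst2 1.66, H2-T22 1.66, H2-T23 1.61, Axl 1.55, Xaf1 1.51, H2-T24 1.40, Kdr 1.33, Irgm1 1.32, Tap1 1.29, Irgm2 1.16, Il18 1.13, Siglec1 1.13, Ccnd1 1.08, Pttg1 1.08, C4b 1.04, Adar 1.02, Fcgr1 1.01, Cd72 0.95, Cnp 0.79, Fcgr4 0.79, Sat1 0.78, Tlr9 0.63, Cgas 0.61, Npc2 0.57 and Irf5 0.52. Those of the 27 negative genes were Gm37310 -5.51, Ranbp3l -4.68, Slc1a3 -3.72, Ccnb1 -2.84, Bub1 -2.74, Hmmr -2.69, Nuf2 -2.67, Fam83d -2.58, Aspm -2.55, Pimreg -2.42, Mki67 -2.28, Gm42047 -2.25, Tpx2 -2.20, Kif11 -2.02, Nxpe5 -1.64, Uhrf1 -1.58, mt-Nd1 -1.27, mt-Nd5 -1.25, mt-Cytb -1.20, Thbs2 -1.12, mt-Nd4 -1.03, Mcm5 -0.97, Scd2 -0.95, Sqle -0.95, Mcm2 -0.88, Rrm1 -0.77 and Psat1 -0.72.

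Single libraries lay far from the rest of their group for some of these genes. In MCAO Vdr-cKO library 1 these were Irf5 (333 CPM), Tap1 (473 CPM), Tlr9 (214 CPM) and Cnp (124 CPM), and in library 2 Ccl5 (17.9 CPM) and Ccl7 (143 CPM). In MCAO control library 1 they were Nuf2 (33.8 CPM), Uhrf1 (63.1 CPM), Mcm5 (71.2 CPM), Axl (123 CPM) and Siglec1 (173 CPM), in library 2 Irgm2 (67.2 CPM) and in library 4 Ccl5 (4.9 CPM). Among sham controls they were Gm6545 (0.239 CPM) in library 1, Tgtp2 (5.06 CPM) in library 2, Adar (67.4 CPM) and Pttg1 (15.8 CPM) in library 3 and Aspm (1.08 CPM) in library 4. There were 18 such values in 228 groups of 4 or 5 libraries, and chance gives about 1 in 20.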

How the results depend on the processing

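Against 159 positive and 102 negative genes, the test against a log2 difference of 1 gave 14 and 9, leaving out sham control 2, 4 and 5 gave 103 and 46, leaving out sham control 1 and 3 gave 224 and 229, and leaving out MCAO Vdr-cKO 3 and 4 gave 247 and 89. Leaving out 1 library gave 132 to 192 and 71 to 130. Against 243 and 199 by adjusted p alone, DESeq2 gave 398 and 350, the test against a log2 difference of 1 gave 14 and 9, leaving out sham control 2, 4 and 5 gave 122 and 60, leaving out sham control 1 and 3 gave 481 and 602, leaving out MCAO Vdr-cKO 3 and 4 gave 379 and 191, and leaving out 1 library gave 166 to 368 and 105 to 358. The causes of these shifts were not tested, apart from the stricter null hypothesis of the test against a log2 difference of 1. With a replicate block the counts were 150 and 75, and 193 and 117 by adjusted p alone. With limma-voom they were 119 and 69, and 196 and 162 by adjusted p alone. The named genes that limma-voom did not call were Isg15, Oasl1, Ifi47, Ifi211, Gm6545, Plac8, Ms4a4c, Cd72, Cnp, Kdr, Mcm2, Mcm5 and Nxpe5. Same-numbered samples of the groups compared deviated with correlations of -0.259 to 0.281. The highest was that of MCAO Vdr-cKO 1 with MCAO control 1. With so few libraries per group, these values cannot decide whether the numbers pair the samples. Of the 74 named genes that were called, 43 kept the call in each of the 29 alternatives that tested them, except the test against a log2 difference of 1. Some of them, such as Ccnb1 and Bub1, were not tested in every alternative. In every fit without 1 library 55 were called, and 0 changed direction. Genes near the filter, with values of 0 in several libraries, are the least precise.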
